A study of Mus musculus with 6 samples.

Results

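The genes described here are 10 transcription factors that set and hold B-cell identity and take part in opening the kappa light chain locus: Ebf1, Pax5, Tcf3, Tcf4, Tcf12, Foxo1, Ikzf1, Ikzf3, Bach2 and Lef1. They were taken by symbol from a table of read counts for 49997 genes, in which all 10 were present. RNA was sequenced from flow-sorted small pre-B cells of C57BL/6 mouse bone marrow (animals aged 6 to 12 weeks), 3 libraries from wild-type (WT) mice and 3 from mice of the ΔrsCBE genotype. No treatment is named for either group, and the labels do not state which interval the Δ removes or whether mice were pooled for a library. The series title ties the genotype to chromatin topology that depends on the DNA-binding protein CTCF and to receptor editing, the replacement of an unsuitable light chain by a new rearrangement.

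Small pre-B cells have mostly left the cell cycle after pre-B receptor signalling and rearrange the kappa locus. The E proteins encoded by Tcf3 (E2A), Tcf4 (E2-2) and Tcf12 (HEB) bind E-box motifs as dimers, and together with Foxo1 they activate Ebf1. Ebf1 opens B-lineage chromatin and activates Pax5, which holds the cells in the B lineage and represses genes of other lineages. Ikzf1 (Ikaros) and Ikzf3 (Aiolos) are zinc finger proteins that end the proliferation of large pre-B cells and favour light chain recombination. Bach2 is a repressor that acts at the pre-B receptor checkpoint, and Lef1 is a high-mobility-group factor of the Wnt pathway that is expressed in early B-cell precursors.

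The sequence just upstream of the annotated starts was examined for the motifs these factors are known to bind, because the factors are known to regulate one another. RefSeq (GRCm38.p6) gave 15 windows of 250 bases for 8 of the 10 genes. Tcf4 and Ikzf3 had no window. The motifs, searched on both strands, were TCCC and GGGA with any pair of bases between them for Ebf1, CANNTG (the E-box, which reads the same on both strands in this form), GTAAACA for Foxo1, TGGGAA for Ikaros and CTTTGAA for Lef1. The Ebf1 motif occurred in 1 member window, upstream of Foxo1, and in 0.779% of 32851 windows of all genes. The Ikaros core motif also occurred in 1, upstream of the second Ebf1 start, against 21.6% of all windows. An E-box was present in 10 of the 15 windows and in 66.2% of all windows, while the Foxo1 and Lef1 motifs had 0 matches in the 15 and occurred in 3.17% and 4.46% of all windows. The 10 include all 4 Lef1 windows, of which windows 1 and 2 overlap and hold the same E-box. Such matches describe the letters of these windows and show no binding. The windows with the Ebf1 and Ikaros motifs are printed with that match in capitals, and the window of Lef1, the member with the highest fold change below, is printed with its E-box in capitals. They lie at chr3:52268087-52268336 (Foxo1, plus strand), chr11:44619978-44620227 (Ebf1, plus strand) and chr3:131110047-131110296 (Lef1, plus strand, the first of 4 annotated starts).
Foxo1: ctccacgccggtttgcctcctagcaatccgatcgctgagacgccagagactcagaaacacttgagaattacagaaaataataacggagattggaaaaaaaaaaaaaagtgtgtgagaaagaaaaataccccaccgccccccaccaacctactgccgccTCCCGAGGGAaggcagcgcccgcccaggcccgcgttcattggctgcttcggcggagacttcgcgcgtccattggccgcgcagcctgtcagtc
Ebf1: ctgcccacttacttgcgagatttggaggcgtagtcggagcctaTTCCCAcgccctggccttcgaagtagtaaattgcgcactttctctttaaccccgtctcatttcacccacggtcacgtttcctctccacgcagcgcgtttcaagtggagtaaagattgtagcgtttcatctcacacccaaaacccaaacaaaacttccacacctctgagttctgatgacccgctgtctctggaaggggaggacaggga
Lef1: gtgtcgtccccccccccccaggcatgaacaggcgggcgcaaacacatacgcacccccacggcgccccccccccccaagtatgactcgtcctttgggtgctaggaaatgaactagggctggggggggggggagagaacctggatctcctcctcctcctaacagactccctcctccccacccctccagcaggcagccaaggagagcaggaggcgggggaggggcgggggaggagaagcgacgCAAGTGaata
The Ebf1 motif lies 92 to 83 bases before the Foxo1 start. The Ikaros core motif lies 207 to 202 bases before the Ebf1 start, on the opposite strand, and the Lef1 E-box lies 10 to 5 bases before the start.

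Library totals ranged from 428106 to 1300805 counts, so that a detection floor of 3 counts equals 2.32 to 7.17 CPM (counts relative to the scaled total of the library), a limit that covers counting error only. Markers of the labelled cell type were present: all 10 genes of a pre-B list (Cd79a, Rag1, Il7r and others) were tested, and their summed level was 8343 to 10013 CPM in WT and 9035 to 9378 CPM in ΔrsCBE. Erythroid, T and NK cell markers were near 0, with 6 of 7 and 8 of 10 genes at 0 counts in all libraries and summed levels of at most 0.772 and 2.46 CPM. The myeloid list summed to 51.7 to 81.2 CPM in WT and 60.2 to 68.8 CPM in ΔrsCBE, nearly all of it Itgam (279 counts over the 6 libraries). Of its other genes S100a8 and Elane were at 0, Csf1r had 10 counts, and Lyz2, S100a9, Cd14, Camp, Ngp and Mpo had 8, 6, 3, 3, 2 and 1 counts, all of them in ΔrsCBE libraries. A list for plasmacytoid dendritic cells, in which Tcf4 is the defining factor, summed to 6.18 to 9.56 and 8.60 to 12.98 CPM, with Siglech, Ccr9, Pacsin1 and Klk1 at 0. Of the pro-B and large pre-B list (summed level 1512 to 1557 CPM in WT and 1538 to 1758 CPM in ΔrsCBE) Cd93 and Il2ra, the latter also on the pre-B list, made nearly the whole level, and Kit, Flt3, Vpreb1, Igll1, Dntt and Myc had 1 to 15 counts each over the 6 libraries. Genes of the cycling list, described further below, summed to 6582 to 7206 CPM in WT and 2832 to 4546 CPM in ΔrsCBE. Mature B markers summed to 636 to 927 CPM in WT and 673 to 829 CPM in ΔrsCBE, with Ighd at 0. The plasma cell list summed to 1104 to 1227 and 1104 to 1393 CPM, of which Irf4, which pre-B cells also express, made 961 to 1278 CPM, while Tnfrsf17 was at 0 and Jchain had 1 count. ΔrsCBE replicates 2 and 3 had 1603 and 1430 counts of Xist and the other 4 libraries at most 1, so these 2 libraries have a female pattern that no WT library has. Nothing in the labels says whether replicates came from separate mice, so p-values measure the spread between these libraries.

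The factors were abundant. Levels of different genes are compared per kilobase of exon (all exons of GENCODE M21 joined). On this scale 7 of the 10 stood at or above the 94.98th percentile of 7464 tested genes with a known length. Tcf3 had the highest level, 492 ± 22.6 CPM per kb in WT and 462 ± 15.8 in ΔrsCBE (SD, n = 3). Pax5 followed with 355 ± 46.1 and 382 ± 13.5 CPM per kb, and its range over the 6 libraries overlapped that of Bach2. Ikzf1 and Ikzf3 came next with overlapping ranges of 186 to 199 and 164 to 195 CPM per kb, and Ebf1 and Foxo1 after them, again overlapping, with 82.7 to 104 and 69.6 to 95.6 CPM per kb.

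The other E proteins were lower than Tcf3 in every library. Tcf12 had 24.5 to 29.9 CPM per kb, and Tcf4 had 8.79 to 12.7 CPM per kb, near the middle of all tested genes (46.9th percentile). Lef1 was lowest with 3.42 to 9.09 CPM per kb (27.0th percentile), a range that overlapped that of Tcf4. The order depends on the length used. Joined exons and the mean annotated transcript were 27382 and 1751 bases long for Tcf4, and both were 8665 bases for Foxo1. With the mean length of the annotated transcripts Pax5 came first, Bach2 next and Tcf3 after them, Tcf4 moved to the 93.1st percentile, Foxo1 to the 81.2nd, and Lef1 remained last.

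**Figure D1:**
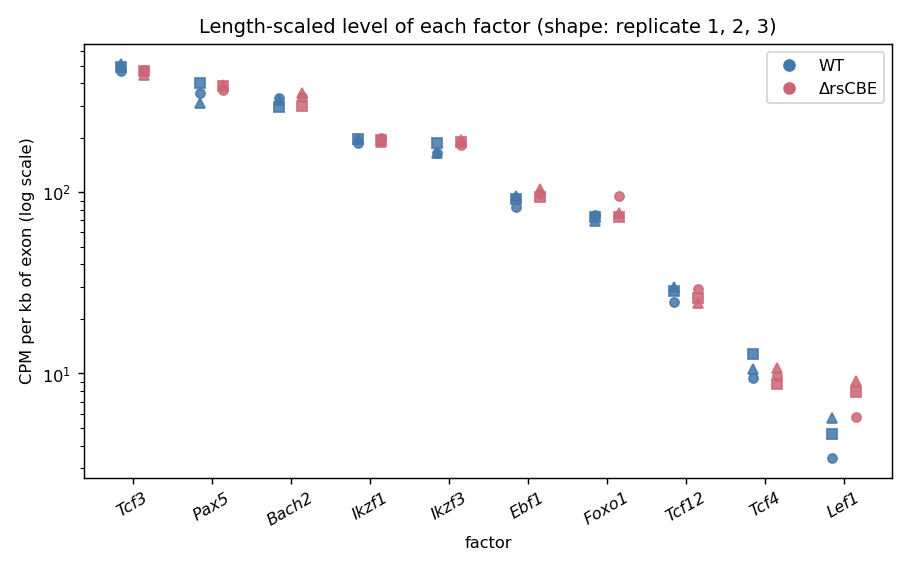
Level of each factor in CPM per kilobase of exon (log axis) in the 3 WT (blue) and 3 ΔrsCBE (red) libraries, with a marker shape for each replicate number. Tcf3, Pax5 and Bach2 lie highest and Tcf4 and Lef1 lowest, and the points of the groups overlap for each factor except Lef1.

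The comparison of genotypes asked whether the factors that define the B lineage differ in ΔrsCBE cells. No factor passed the threshold. All 10 factors passed the filter on low counts and were tested, and 0 were called at an adjusted p under 0.05 (quasi-likelihood F test of edgeR, Benjamini-Hochberg over 7792 genes), against 1.69% of all tested genes. An unadjusted p-value under 0.05 occurred for 1 factor, Lef1, against 10.2% of all tested genes. The DESeq2 Wald test likewise called 0 factors, with 1 at an unadjusted p under 0.05. The median log2 fold change of the 10 was 0.08, beside 0.01 for all tested genes, and the median absolute value was 0.12, beside 0.18. For 9 of the 10, all but Lef1, the 95% interval of the fold change in this edgeR fit lay within a 1.5-fold difference in either direction. The share of all tested genes for which this held was not computed, so the count is not a trait of these factors. Fewer cells that express a gene and less RNA per cell cannot be told apart in these libraries.

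Among the factors that start the programme, Ebf1 had 807, 891 and 929 CPM in the WT libraries, in the order of replicates 1 to 3 used throughout, and 960, 924 and 1016 CPM in ΔrsCBE. The groups overlapped, since ΔrsCBE replicate 2 lay just under WT replicate 3. The log2 fold change was 0.14 ± 0.10 (standard error, SE), with a 95% interval from -0.06 to 0.34 (edgeR adjusted p-value 0.684). Pax5, which holds B-cell fate once it is set, had 3129, 3557 and 2742 CPM in WT and 3247, 3406 and 3481 CPM in ΔrsCBE. All 3 ΔrsCBE libraries lay between the highest and lowest WT libraries, and the log2 fold change was 0.11 ± 0.09 (SE), with an interval from -0.08 to 0.30 (edgeR adjusted p-value 0.773). It was 0.21 without WT replicate 2 and 0.019 without WT replicate 3.

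Foxo1, the forkhead factor that activates the recombinase genes, had 649, 633 and 603 CPM in WT and 828, 633 and 669 CPM in ΔrsCBE. ΔrsCBE replicate 1 stood above the other 5 libraries, which lay close to one another. The log2 fold change was 0.18 ± 0.11 (SE), with an interval from -0.05 to 0.41 (edgeR adjusted p-value 0.638). Without ΔrsCBE replicate 1 it was 0.05. In a fit with a covariate for the libraries with Xist counts, where the genotype effect rests on that replicate alone, it was 0.40 (edgeR adjusted p-value 0.123).

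The E proteins gave the 3 lowest log2 fold changes, all with intervals that include 0. Tcf3 had 1889, 1997 and 2071 CPM in WT and 1921, 1877 and 1795 CPM in ΔrsCBE, and the groups overlapped. Its log2 fold change was -0.09 ± 0.09 (SE), with an interval from -0.27 to 0.09 (edgeR adjusted p-value 0.802). Tcf12, its dimer partner, had 385, 442 and 465 CPM in WT and 452, 407 and 381 CPM in ΔrsCBE, and its interval ran from -0.30 to 0.17 (edgeR adjusted p-value 0.92). Tcf4 had 259, 349 and 290 CPM in WT and 265, 241 and 293 CPM in ΔrsCBE. WT replicate 2 was the highest library, and without it the log2 fold change of Tcf4 went from -0.16 to -0.045. The sign for Tcf12 was not stable: its log2 fold change was -0.06 in the reported fit and 0.06 with the Xist covariate.

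Ikzf1 was the most even of the 10, with 1076, 1140 and 1141 CPM in WT and 1147, 1121 and 1089 CPM in ΔrsCBE. The group means were both 1119 CPM, and the interval of the log2 fold change ran from -0.19 to 0.19 (edgeR adjusted p-value 0.999). Its sign is therefore not informative and turned under another scaling (-5.63e-04 with DESeq2 size factors). Ikzf3, the Ikaros relative that rises as pre-B cells mature, had 1437, 1644 and 1450 CPM in WT and 1596, 1662 and 1709 CPM in ΔrsCBE. WT replicate 2 lay within the ΔrsCBE range, so the groups overlapped, and the log2 fold change was 0.14 ± 0.09 (SE), with an interval from -0.05 to 0.32 (edgeR adjusted p-value 0.673). Bach2 had 3307, 2936 and 3232 CPM in WT and 3347, 2990 and 3528 CPM in ΔrsCBE, with an interval from -0.12 to 0.24 (edgeR adjusted p-value 0.896).

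Lef1 was the member that stood apart, and also the one with the fewest reads. Lef1 was at 30.01, 40.6 and 50.2 CPM in WT and at 50.7, 69.4 and 79.9 CPM in ΔrsCBE, from 17 to 69 counts a library. The groups did not overlap, which held for 16.2% of all tested genes, for 7.24% with ΔrsCBE higher and for 8.95% with ΔrsCBE lower, but WT replicate 3 and ΔrsCBE replicate 1 were nearly equal. The means were 40.3 ± 10.1 and 66.7 ± 14.8 CPM (SD, n = 3). The log2 fold change was 0.67 ± 0.23 (SE) with an interval from 0.19 to 1.15, and the edgeR adjusted p-value was 0.214. Its unadjusted p-value of 0.00852 ranked 310th among 7792 genes. The 2 highest libraries are those with Xist counts. With the Xist covariate the log2 fold change was 0.27 (edgeR adjusted p-value 0.831), and without ΔrsCBE replicate 1 it was 0.82 (adjusted p-value 0.0734). WT has no library with Xist counts, so the fit with the covariate rests on ΔrsCBE replicate 1 alone.

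**Figure D2:**
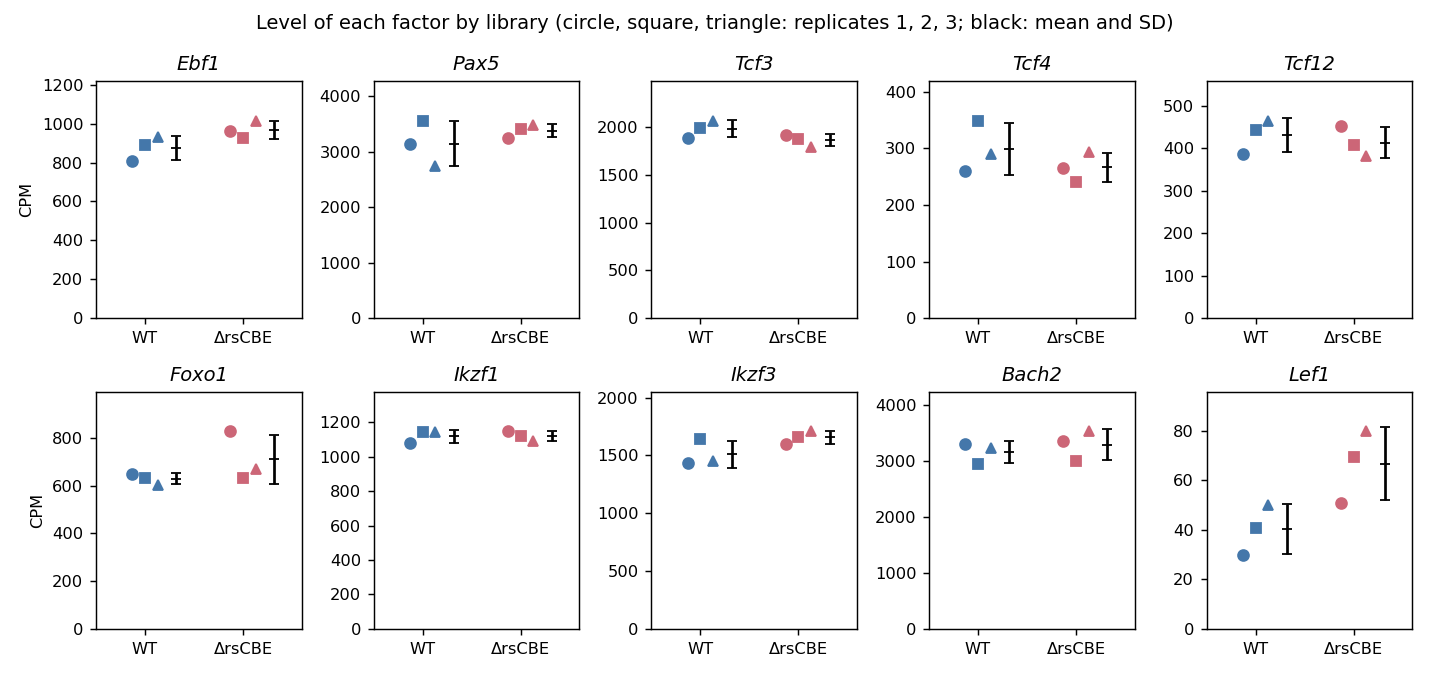
CPM of each of the 10 factors in 3 WT (blue) and 3 ΔrsCBE (red) libraries, with each axis starting at 0 and the mean ± SD beside the points. The points of the groups overlap for 9 factors, and for Lef1 the lowest ΔrsCBE library (50.7 CPM) lies just above the highest WT library (50.2 CPM).

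**Figure D3:**
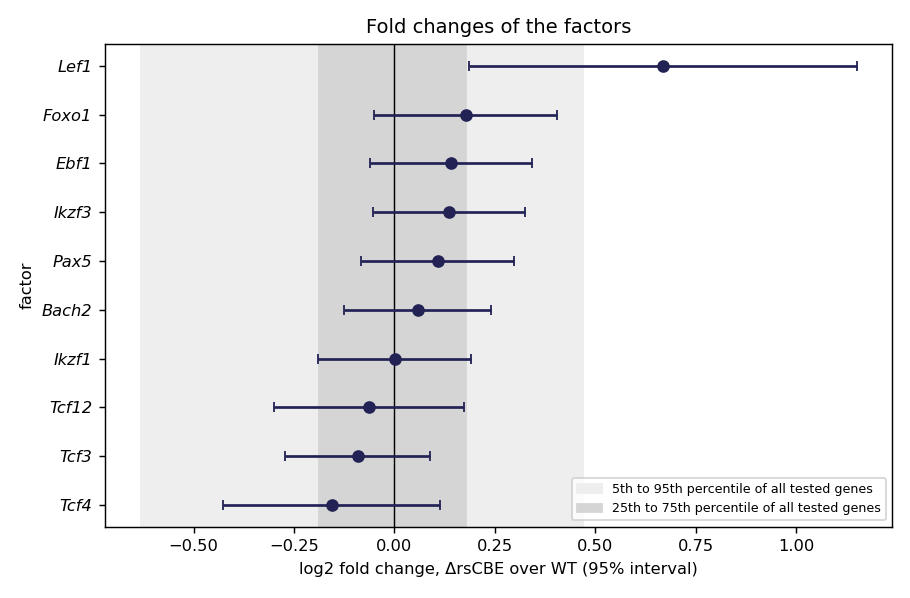
Log2 fold change of ΔrsCBE over WT with its 95% interval for each factor, over the 5th to 95th percentile (-0.63 to 0.47) and the 25th to 75th percentile (-0.19 to 0.18) of all tested genes. Intervals of 9 factors include 0, and that of Lef1 runs from 0.19 to 1.15.

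The balance between related factors was then compared as a log2 ratio of counts within each library, which does not depend on scaling. An exact two-sided permutation test of 3 against 3 libraries cannot give a p under 0.1, and p-values were adjusted over the 3 ratios. The ratio of Ikzf3 to Ikzf1 was 0.42, 0.53 and 0.35 in WT and 0.48, 0.57 and 0.65 in ΔrsCBE. The groups overlapped at WT replicate 2, and the difference was 0.13 (exact p = 0.2, adjusted 0.6). The ratio of Tcf12 to Tcf3 differed by 0.03 (exact p = 0.6, adjusted 0.9) and that of Pax5 to Ebf1 by -0.03 (exact p = 0.9, adjusted 0.9), both less than the SD between WT libraries of 0.07 and 0.24. No difference between genotypes in these ratios was detectable with 3 libraries each.

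Among the 45 pairs of factors the Pearson correlation of log2 CPM over the 6 libraries had a median of 0.135 and ran from -0.604 (Pax5 and Tcf3) to 0.928 (Tcf12 and Ikzf1). The 4 pairs above 0.8 were Tcf12 with Ikzf1, Ebf1 with Lef1 (0.889), Tcf3 with Tcf12 (0.859) and Pax5 with Ikzf3 (0.849). After each group's mean was removed these 4 were 0.968, 0.761, 0.970 and 0.840. These values describe 6 libraries of unequal depth, in each of which all genes share the same depth and scaling, and they carry no test. Over the same libraries the genes most like Ebf1, of 6355 others with a mean of at least 20 CPM, were Icam1 (r = 0.983), Ralgps1 (0.980) and Gm5835 (0.979). Those most like Pax5 were Arfgap1 (0.995), Gm4928 (0.984) and Rpl32l (0.981), and those most like Foxo1 were Fermt3 (0.986), Tor1aip1 (0.984) and Spib (0.976). With so few libraries many genes reach such values: 69, 31 and 50 genes had a correlation above 0.9 with Ebf1, Pax5 and Foxo1.

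Genes that the factors are known to control, restrain or work with were read from 8 lists, of 100 genes without the members. Of these 55 were tested, and 1, the Foxo1 target Klf2, passed the threshold as higher in ΔrsCBE, while 0 passed it as lower. Over all tested genes 0.205% were called higher and 1.49% lower. The median log2 fold change of the 55 was 0.05.

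Klf2, a zinc finger factor of quiescence and trafficking, was 1 of 15 Foxo1 targets, all of them tested. It had 232, 241 and 253 CPM in WT and 321, 392 and 404 CPM in ΔrsCBE. Each ΔrsCBE library lay above each WT library, which held for 7.24% of all tested genes. The log2 fold change of Klf2 was 0.62 ± 0.12 (SE, edgeR adjusted p-value 0.00533). It was not past the threshold without ΔrsCBE replicate 3 (0.55, adjusted p-value 0.0755) or with the Xist covariate (0.40, adjusted p-value 0.271). The median of the 15 targets was 0.07. The most abundant of them, Rag1 of the recombinase, had 3166 ± 565 CPM in WT and 3477 ± 317 in ΔrsCBE (SD, n = 3), which is 0.14 on the log2 scale (edgeR adjusted p-value 0.754), and Il7r, the receptor of interleukin 7, had 0.08 (edgeR adjusted p-value 0.891). The sign of both turned in other fits: Rag1 was -0.0040 without WT replicate 1 and Il7r was -0.021 without ΔrsCBE replicate 3, and with the Xist covariate they were -0.02 and -0.10.

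Of 14 genes activated by Ebf1 and Pax5, 12 were tested and 0 passed the threshold, with a median log2 fold change of 0.01, 6 above 0 and 6 below. Pou2af1, a B-cell coactivator, had 1091 ± 153 CPM in WT and 1023 ± 69.2 in ΔrsCBE (edgeR adjusted p-value 0.852). Cd79a, a signalling chain of the B-cell receptor, had 1056 ± 206 and 889 ± 49.9 CPM, or -0.24 on the log2 scale (edgeR adjusted p-value 0.483) and -0.07 without WT replicate 2. Of 9 genes that Pax5 represses, Ccr2, Cd28, Emb and Ly6a were at 0 counts in all 6 libraries and 2 were tested. Notch1, the receptor that directs T-cell fate, had 205 ± 32.6 CPM in WT and 230 ± 30.6 in ΔrsCBE (edgeR adjusted p-value 0.807), and Xbp1, a plasma cell factor, had 37.8 ± 2.02 and 55.8 ± 6.19 CPM (edgeR adjusted p-value 0.294). Of 14 lineage factors of other blood cells 10, among them Gata1, Gata3, Cebpa and Bcl11b, had 0 counts. Runx3, Zbtb7b, Prdm1 and Cebpb were detected at low levels, with 51, 50, 38 and 19 counts over the 6 libraries. None of the 14 passed the count filter, and they summed to 31.7 to 33.5 CPM in WT and 28.3 to 32.2 CPM in ΔrsCBE.

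RNA of the genes for proteins that hold E proteins inactive gave few reads, with 66 counts for Id2 and 36 for Id3 over the 6 libraries. These levels were not scaled by length. Of Id1 to Id4 only Id2 was tested, with 12.8 ± 5.19 CPM in WT and 12.8 ± 1.57 in ΔrsCBE (edgeR adjusted p-value 0.978), and Id4 had 0 counts. Of 18 paralogs of the factors 5 were tested and 0 passed, and Ebf2, Ebf3, Ebf4, Ikzf4 and the 5 other Pax genes on the list were at 0. Foxo3 and Foxo4, which share DNA-binding preference with Foxo1, had log2 fold changes of 0.29 and 0.09 (edgeR adjusted p-values 0.557 and 0.956). Of 22 partners and corepressors 18 were tested and 0 passed, with a median of -0.05. Myb, a factor of early haematopoiesis, had 3204 ± 129 CPM in WT and 3953 ± 534 in ΔrsCBE, or 0.30 on the log2 scale (edgeR adjusted p-value 0.123). Its ΔrsCBE libraries had 3336, 4252 and 4269 CPM, and with the Xist covariate the log2 fold change was 0.06. Chd4, the remodeller that Ikaros binds, had -0.13 (edgeR adjusted p-value 0.716). Of the 6 Ikaros and Aiolos targets 2 were tested: Ccnd3, the cyclin of pre-B cell division, with 0.24 (edgeR adjusted p-value 0.603) and Ccnd2 with 0.64 (edgeR adjusted p-value 0.758), from 69 counts in all and -0.0067 without WT replicate 3.

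Genes of cycling cells differed between the same libraries while the factors did not pass the threshold. Of 23 listed, 21 were tested, and all 21 had a log2 fold change below 0, with a median of -0.99. Past the threshold were 12 as lower in ΔrsCBE and 0 as higher, against 1.49% and 0.205% of all tested genes. The 12 became 7 without WT replicate 3, 8 without ΔrsCBE replicate 3 and 6 with the Xist covariate. Mki67 had 3380, 3663 and 3390 CPM in WT and 1489, 2355 and 1480 CPM in ΔrsCBE, or -0.97 on the log2 scale (adjusted p-value 0.01 in edgeR). It was not past the threshold without WT replicate 2 (-0.92, adjusted p-value 0.0859), without ΔrsCBE replicate 1 (-0.86, adjusted p-value 0.087) or with the Xist covariate (-1.22, adjusted p-value 0.0931). Immediate early genes went the other way: all 10 tested genes had a log2 fold change above 0, with a median of 0.65. Of these, 3 passed the threshold, against 0.205% of all tested genes called higher. ΔrsCBE replicate 2 had the highest Mki67 level of its group and the lowest Foxo1 level (633 CPM). ΔrsCBE replicates 1 and 3 had nearly equal Mki67 levels but 828 and 669 CPM of Foxo1. Lef1 and Klf2 were lowest of the group in ΔrsCBE replicate 1. The part of cycling or of immediate early expression in the values of Foxo1, Lef1 and Klf2 was not tested.

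**Figure D4:**
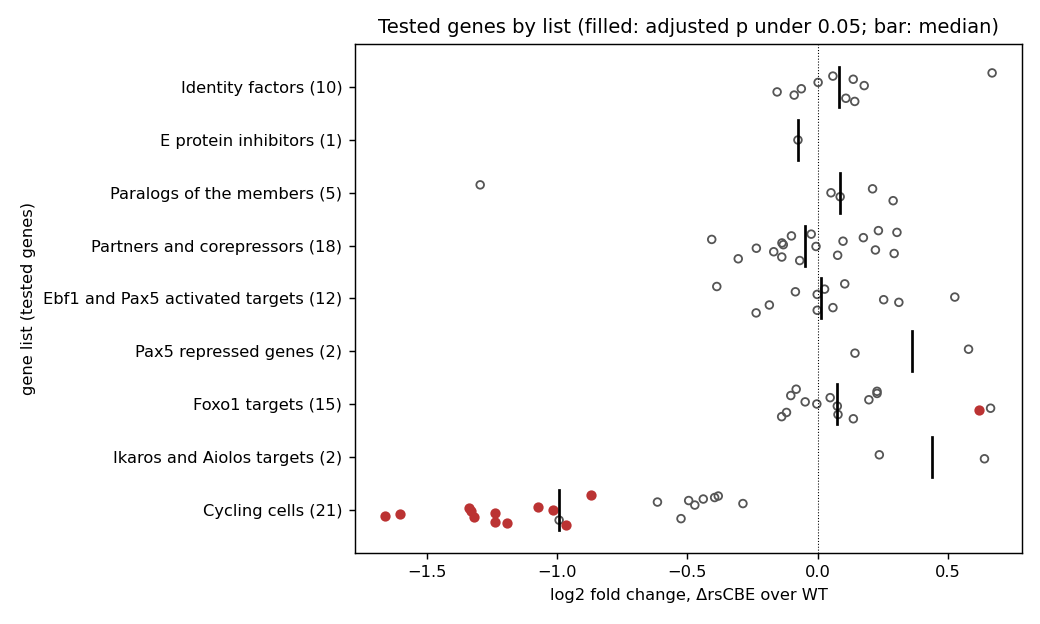
Log2 fold change of ΔrsCBE over WT for each tested gene of the 10 identity factors, the pathway lists with tested genes and the cycling list. Brackets give the number tested, filled points an adjusted p-value under 0.05 and bars the median. The other marker lists, immediate early genes included, are not drawn. The identity factors lie around 0 with Lef1 at 0.67, Klf2 is the 1 filled point among the pathway lists, and 12 cycling genes are filled below 0.

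The factors are encoded at separate loci, given here on GRCm38 from GENCODE M21. Ebf1 spans chr11:44617317-45008091 and Ikzf1 chr11:11685003-11772926 on the plus strand, with Ikzf3 at chr11:98464902-98546031 on the minus strand. Pax5 lies at chr4:44524757-44710487 (minus strand) and Bach2 at chr4:32238804-32586108 (plus strand), while Foxo1 (chr3:52268336-52353221) and Lef1 (chr3:131110471-131224356) are on the plus strand. Tcf3 lies at chr10:80409514-80433647 and Tcf12 at chr9:71842688-72111871, both on the minus strand, and Tcf4 lies on chromosome 18. Exons of Pax5, Foxo1, Bach2 and Lef1 overlap exons of noncoding or predicted genes on the opposite strand. In the count table the antisense gene Bach2os had 26 counts over the 6 libraries against 16187 of Bach2, and 5730488B01Rik and Gm12462, opposite to Pax5, had 20 and 0 against 15989. Counts of the genes opposite to Foxo1 (Gm20402) and Lef1 (Gm43352) are not given here.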

How the data were processed

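The deposited values were raw read counts, whole numbers for each gene symbol in 1 column per library, which the authors had not normalized. Trim Galore 0.6.10, STAR 2.7.11, HTSeq, DESeq2 and the mm10 build are named in the submitters' processing notes. Per the labels' protocols, ribosomal RNA was removed and a stranded total RNA kit was used. The strand setting and annotation used for counting are not given in the sources used here.

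Genes were kept by filterByExpr (minimum count 10), scaled by TMM and tested with edgeR 4.0.16 (glmQLFit, robust, and glmQLFTest) in R 4.3.3, with genotype as the sole factor. P-values were adjusted over 7792 genes and an adjusted p under 0.05 was the threshold. Standard errors and 95% intervals come from the F statistic. CPM uses TMM-scaled totals (418555 to 1294853, from raw totals of 428106 to 1300805 counts), log2 CPM a prior count of 2, and ratios a pseudocount of 0.5. Scripts were tested on simulated data. Replicates of a genotype differed by more than counting noise in each pair (1.78 to 3.18 chi-square units per degree of freedom). DESeq2 1.42.0 and other alternatives are reported below.

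The members and lists were chosen with earlier results of these data known. Named genes are the members, list genes past the threshold, the 2 most abundant tested genes of each pathway list, and the 3 genes most correlated with Ebf1, Pax5 and Foxo1. The listed gene Aes was matched as Tle5.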

Additional observations from a re-analysis of the deposited data

How the results depend on the processing

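Members past the threshold stayed at 0 in all 15 alternatives, the DESeq2 Wald test included, and the smallest adjusted p-value of any member in any of them was 0.0734 (Lef1, without ΔrsCBE replicate 1). Over the 15, 8 members kept their sign, and Tcf12 kept it in 13 and Ikzf1 in 11. Leaving out 1 library at a time, the log2 fold change of Lef1 lay between 0.50 and 0.95, that of Foxo1 between 0.05 and 0.26, and that of Pax5 between 0.019 and 0.21. Among the other named list genes the sign of Id2, Foxo4 and Pou2af1 also turned, with leave-one-out ranges of -0.24 to 0.11, -0.05 to 0.32 and -0.17 to 0.029. The 132 genes past the threshold became 87 with the Xist covariate, and 59 to 187 with 1 library left out (59 without WT replicate 3 and 59 without ΔrsCBE replicate 3). The 1 pathway gene, Klf2, became 2 without a count filter, 3 when genes needed 1 CPM in 3 libraries, 2 at an adjusted p under 0.1, 0 with the Xist covariate, and 0 to 4 with 1 library left out. The cause was not tested. The genes added were S1pr1 and Myb, and Bst1 and Cd72 without ΔrsCBE replicate 1. The labels share replicate numbers without saying that they pair mice, and same-numbered libraries did not deviate together (correlations of 0.0131, 0.0197 and 0.00908). With a replicate block 136 genes, 0 members and 2 pathway genes passed. Lef1 with 17 counts in WT replicate 2 is the member that depth limits most.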

Other observations

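Tcf7l2 and S1pr1, list genes short of the threshold, were picked out here after their values were seen. Tcf7l2, a Wnt pathway factor of the same family as Lef1, was at 22.1, 16.7 and 23.2 CPM in the WT libraries and at 8.26, 11.1 and 6.14 CPM in the ΔrsCBE libraries. Each ΔrsCBE library lay below each WT library, the opposite direction to Lef1, which held for 8.95% of all tested genes. The log2 fold change was -1.30 ± 0.39 (SE, edgeR adjusted p-value 0.104) from 74 counts over the 6 libraries. The other members of that family on the list, Tcf7 and Tcf7l1, had 7 and 0 counts in all.

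S1pr1, the sphingosine 1-phosphate receptor that guides lymphocytes out of tissues and a target of Klf2 and Foxo1, had 90.0, 69.3 and 79.6 CPM in WT and 129, 102 and 154 CPM in ΔrsCBE. The groups did not overlap, which held for 7.24% of all tested genes with ΔrsCBE higher. The log2 fold change was 0.66 ± 0.18 (SE, edgeR adjusted p-value 0.0632). For S1pr1 and Tcf7l2, log2 fold changes with the Xist covariate or with 1 library left out are not given here.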
